A study of Mus musculus with 6 samples.

Results

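Genes that liver cells use to take up, carry, coat and store fat were followed in whole liver of mice whose genotype targets Dicer for deletion in hepatocytes. Dicer is the enzyme that cuts miRNA precursors into mature miRNAs. The 10 genes were Cd36, Cidea, Cideb, Cidec, Plin2, Plin4, Plin5, Mogat1, Fabp4 and G0s2. They were chosen by name, each matched 1 of the 50600 genes in the tables, and 8 of the 10 held enough counts to be tested. RNA was sequenced from 3 liver samples of genotype Dicerloxp/loxp;Alb-cre (Dicer LKO, n = 3) and 3 of genotype Dicerloxp/loxp (control, n = 3), all from C57BL/6 mice aged 1 month. Both groups thus carry the loxP-flanked Dicer alleles, and only the Dicer LKO group carries Cre. The albumin promoter that drives Cre is active in hepatocytes, so the design targets these. Whether Dicer was deleted in other cells of the liver was not checked. The labels do not say whether the samples came from separate animals. The p-values therefore reflect only how far these 6 samples vary, and some of that variation may be technical.

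Liver stores surplus fatty acids as triglyceride in lipid droplets. Each droplet has a core of neutral lipid and a coat of proteins, among them the perilipins (PLIN), which control the access of lipases, and the CIDE proteins, which promote the transfer of lipid between droplets. CD36 brings long-chain fatty acids into cells, FABP4 carries them in the cytosol, MOGAT1 joins them to monoacylglycerol, and G0S2 inhibits the main triglyceride lipase. Several of these transcripts are known to rise in fatty liver.

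Cd36 was the 1 member that rose. Its gene (ENSMUSG00000002944.15) lies on chromosome 5, from 17781690 to 17888801 on the minus strand of GRCm38, and no other annotated gene overlaps it. The 250 bases before a RefSeq start of the gene (chr5:17835897-17836146, GRCm38.p6, minus strand) are shown because Cd36 is the called member. They lie inside the annotated span given above, not before its outermost start at 17888801. Capitals mark a match to AGGTCA, the hexamer at the core of nuclear receptor binding elements, here on the opposite strand.
Cd36 upstream: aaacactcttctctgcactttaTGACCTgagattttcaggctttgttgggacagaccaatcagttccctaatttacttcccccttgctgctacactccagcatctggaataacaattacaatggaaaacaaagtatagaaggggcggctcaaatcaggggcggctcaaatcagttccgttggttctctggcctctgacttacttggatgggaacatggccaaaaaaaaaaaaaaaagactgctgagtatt
The hexamer, searched on both strands, was also found once each in the same window of Plin2 and of 1 of the windows of Plin5. It was not found in those of Plin4, Cideb, Cidec, Mogat1 and G0s2. Among all windows of tested genes, 11.4% of 12982 held it. The element DR1, in which the hexamer is repeated after a 1-base gap, was searched on both strands. It was in 0.0385% of them and in none of the members' windows. These matches describe letters in a window, and the start sites used in these livers were not measured.

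The deletion is meant to remove the enzyme that makes miRNAs. The longest annotated 3′ untranslated region of each member was therefore searched for matches to bases 2 to 8 (the seed) of 19 miRNAs. Cd36, with 1660 bases after the stop codon, held matches to 5 of them, against a mean of 2.7 per gene over 12472 tested genes, of which 21.5% held at least as many. The median length over those genes was 1365 bases, so the Cd36 region was longer than the median. The 5 mature miRNAs are printed with the seed in capitals, each followed by its Cd36 site with the matching bases in capitals.
miR-93-5p: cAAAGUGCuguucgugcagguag
Cd36 site for miR-93-5p (chr5:17783073-17783101): aataaaatcttGCACTTTtattaaaagtc
miR-130a-3p: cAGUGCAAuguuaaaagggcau
Cd36 site for miR-130a-3p (chr5:17783075-17783103): ttaataaaatcTTGCACTtttattaaaag
miR-103-3p: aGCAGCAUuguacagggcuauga
Cd36 site for miR-103-3p (chr5:17782596-17782624): cgtcatgttccATGCTGCatagctcttta
miR-22-3p: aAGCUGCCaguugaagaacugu
Cd36 site for miR-22-3p (chr5:17781959-17781987): caaaactgcatGGCAGCTttgggcaggag
miR-148a-3p: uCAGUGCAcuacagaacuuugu
Cd36 site for miR-148a-3p (chr5:17781805-17781833): gtgcacccttcTGCACTGcatgtggtgat
The sites for miR-93-5p and miR-130a-3p overlap, at bases 260 to 266 and 258 to 264 of the region. Only the miR-103-3p site is followed by an A, the base that extends a seed match in the strongest class of sites. Of all regions searched, 12.2% to 17.7% held a site for each of these 5. Plin4 had sites for 2 of the 19 miRNAs (miR-103-3p and miR-93-5p), G0s2 for 2 (miR-27a-3p and miR-16-5p), Plin2 for 1 (miR-22-3p) and Cideb for 1 (miR-34a-5p). No site was found for Cidea, Cidec, Plin5, Mogat1 and Fabp4. The miRNAs themselves were not measured in these libraries.

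The libraries held 14141973 to 25049749 counts, with control replicate 3 the shallowest and with 10.2% of its counts from mitochondrial genes, against 4.62% to 6.46% in the others. Dicer1 was lower in all 3 Dicer LKO libraries, at 28.9, 31.2 and 24.4 CPM (counts scaled by library size) against 42.5, 69.3 and 56.1 CPM (exact two-sided permutation p = 0.1, the smallest that 3 against 3 allows; adjusted p = 0.0622, edgeR). Its counts cover the whole gene and all liver cells, so the deleted part was not checked separately. Alb, the defining transcript of hepatocytes, was at 9334 to 20840 TPM (the deposited transcript abundance per length), and none of the 10 hepatocyte markers was called. Control replicate 3 also stood apart in transcripts of muscle and fat. Summed over 13 heart muscle markers other than Csrp3, it held 66.8 TPM, against 11.9 and 11.2 TPM in control replicates 1 and 2 and 1.53, 0.53 and 9.05 TPM in Dicer LKO replicates 1, 2 and 3. With Csrp3, a muscle gene at 9.01 to 24.1 TPM in every library, the sums were 81.6 TPM against 20.9 to 26.2 TPM. Single markers differed in pattern. Myl2 was at 28.9 TPM in control replicate 3 and at most 1.97 TPM elsewhere. Nppa was at 4.23, 4.2 and 5.6 TPM in control replicates 1, 2 and 3, and at 0, 0 and 3.94 TPM in Dicer LKO replicates 1, 2 and 3. None of the 10 tested heart muscle markers (median log2 fold change −2.16) or of the 4 tested fat cell markers (−1.07) was called by edgeR. In 7 of these 10 heart muscle markers all Dicer LKO libraries were below all controls in CPM, and in 1 all were above. Over all genes the shares were 15.4% and 12.7%. For those 7 the lower level was thus not confined to the comparison with control replicate 3. Of the 4 fat cell markers, 1 lay below all controls and 0 above. The muscle fatty acid carrier Fabp3 was at 32.4 TPM in control replicate 3 and at most 0.92 TPM elsewhere. The muscle and brown fat gene Cox8b was at 25.1 TPM in that library against at most 0.21 TPM. Muscle and fat express several of the members at high levels, so the fitted change of each tested member is given with and without this library; the part of these tissues in the results was not tested.

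**Figure D1:**
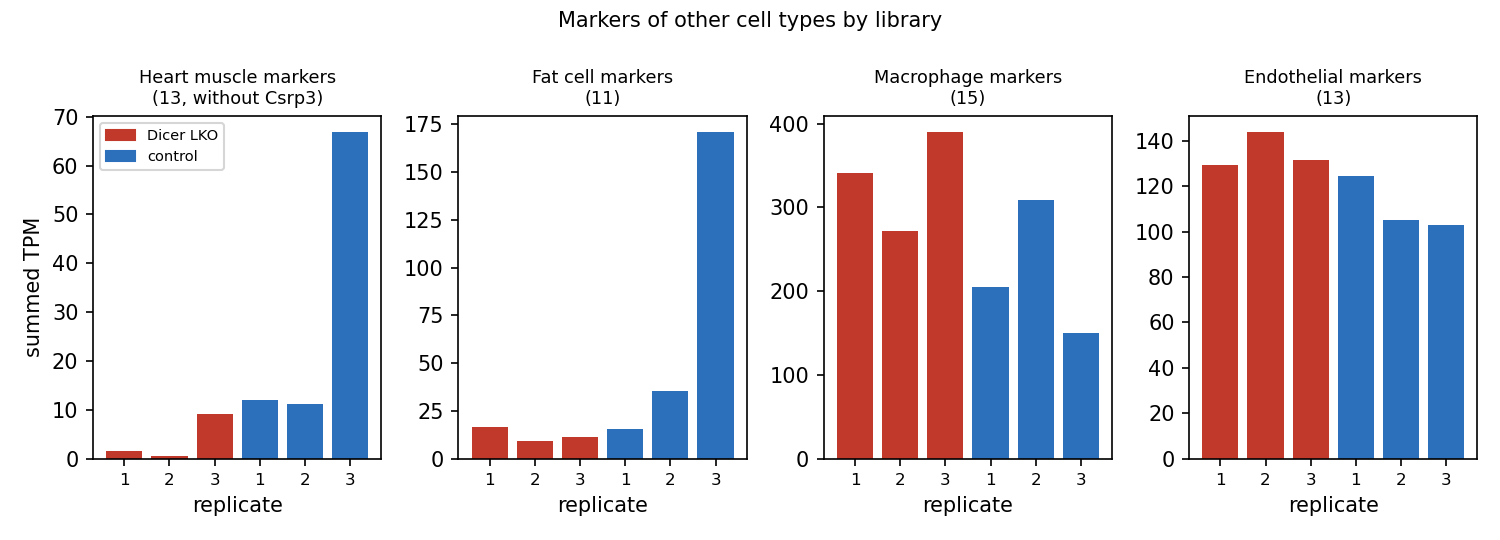
Summed TPM of markers of other cell types in each library (bars; red for Dicer LKO, blue for control), with the number of genes in each list above its panel. Control replicate 3 holds 66.8 TPM of heart muscle markers (28.9 TPM of it Myl2). It holds 170.9 TPM of fat cell markers, mostly Elovl3 (129 TPM), which liver also expresses.

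The transporter gene Cd36 had the clearest difference. Its level was 32.1, 31.9 and 45.3 TPM in Dicer LKO and 8.19, 6.31 and 15.03 TPM in the controls, from 2672, 2702 and 4082 counts against 642, 442 and 689 counts. Every Dicer LKO library was above every control (so in 12.7% of genes, in CPM), and the closest values were 31.9 and 15.03 TPM. The means were 36.4 ± 7.71 and 9.84 ± 4.59 TPM (SD, n = 3 each), a ratio of 3.7, and on the CPM scale 138 ± 21.6 against 31.4 ± 11.5 CPM, a ratio of 4.4. On the log2 scale the fitted change was 2.14 (SE 0.27; adjusted p = 0.0201, edgeR's quasi-likelihood test). Among 14314 genes tested, 1.29% were called at an adjusted p under 0.05, 0.741% higher and 0.552% lower, and 1.93% had a change at least as large in either direction. Without control replicate 3 the value was 2.48 (adjusted p = 0.0346, edgeR), and without Dicer LKO replicate 2 as well it was 2.5 (0.0278). The call was lost without Dicer LKO replicate 1 (2.22, adjusted p = 0.055, edgeR), without Dicer LKO replicate 3 (2.01, 0.0681) and with limma on log2 TPM (1.91, 0.0541), while the fitted value stayed between 1.91 and 2.5 in all 14 alternatives. In whole tissue, more cells of a type and more RNA per cell cannot be told apart.

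Cd36 is also expressed by macrophages and endothelial cells, so their markers are set beside it. Each of the 15 markers of macrophages and Kupffer cells had a value above 0 (median log2 fold change 0.80), and 1 was called, the lipid-associated macrophage receptor Trem2 (2.06, adjusted p = 0.0415, edgeR). Among the abundant ones, the complement gene C1qa (0.84, adjusted p = 0.105, edgeR) and the lysozyme gene Lyz2 (0.80, adjusted p = 0.196, edgeR) were not. The list summed to 341, 271 and 390 TPM in Dicer LKO and to 205, 309 and 150 TPM in the controls, so that the sums overlapped. In 9 of the 15 markers, however, all Dicer LKO libraries were above all controls in CPM, against 12.7% of genes. The 13 endothelial markers had a median of 0.27, and 1, the clotting factor carrier Vwf, rose (1.45, adjusted p = 0.0196, edgeR). They summed to 129, 144 and 131 TPM against 125, 105 and 103 TPM, without overlap. In 5 of the 13 all Dicer LKO libraries were above all controls in CPM, and in 1 all were below (12.7% and 15.4% of genes). The sinusoidal markers Clec4g and Stab2 had values of 0.68 and 0.54 without a call. Among 14 stellate cell and fibroblast markers (median 0.67), 3 rose, namely the matrix gene Lum (2.19), the growth factor receptor Pdgfra (1.36) and Cygb, the globin of stellate cells (1.01), with adjusted p-values of 0.0148, 0.0148 and 0.0481 by edgeR. They summed to 229, 203 and 224 TPM against 164, 159 and 174 TPM, without overlap. In 7 of the 14 all Dicer LKO libraries were above all controls in CPM, and in 1 all were below. Calls of a rise, in 1 of 15 macrophage, 1 of 13 endothelial and 3 of these 14 markers, stand against 0.741% of all genes. The part of these cells in the Cd36 difference was not tested. The mean transcript length that the tables give for Cd36, weighted by estimated isoform abundance, was 2787, 2744 and 2722 bases in Dicer LKO and 2784, 2554 and 2397 bases in the controls. TPM is corrected for transcript length, and the length given was shortest in control replicate 3.

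Fabp4, the fatty acid carrier typical of adipocytes, macrophages and capillaries, had the largest fitted value of the 8 members but did not pass the test. Its gene is on chromosome 3 (10204088 to 10208576, minus strand) and no annotated gene overlaps it. It was at 9.56, 50.8 and 6.27 TPM in Dicer LKO and at 2.42, 1.99 and 7.83 TPM in the controls. Dicer LKO replicate 2 was far above the rest, and Dicer LKO replicate 3 lay below control replicate 3. The log2 fold change was 2.70 (SE 1.05, adjusted p = 0.23, edgeR), 1.14 without Dicer LKO replicate 2 and 3.48 without control replicate 3. Fat cells hold much Fabp4. Their marker Lep was listed at 0 TPM in all 6 libraries, and Adipoq and Plin1 at 0 TPM in Dicer LKO replicates 2 and 3 and control replicate 2. The 11 fat cell markers summed to 16.4, 9.13 and 11.4 TPM in Dicer LKO and 15.4, 35.6 and 170.9 TPM in the controls. In Dicer LKO replicate 2 most of this sum came from Elovl3 (2.53 TPM), Lipe (3.09 TPM) and Pparg (3.05 TPM), which liver also expresses. Summed macrophage markers were lowest of the Dicer LKO group (271 TPM) and summed endothelial markers highest (144 TPM) in that library. Single macrophage markers went both ways. Lyz2 was lowest of the group there (40.7 against 61.5 and 94.1 TPM), and Marco was highest (13.3 against 5.75 and 5.88 TPM). The part of these cell types in the Fabp4 level of Dicer LKO replicate 2 was not tested. In control replicate 3, Adipoq was at 0.57 and Plin1 at 0.36 TPM.

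**Figure D2:**
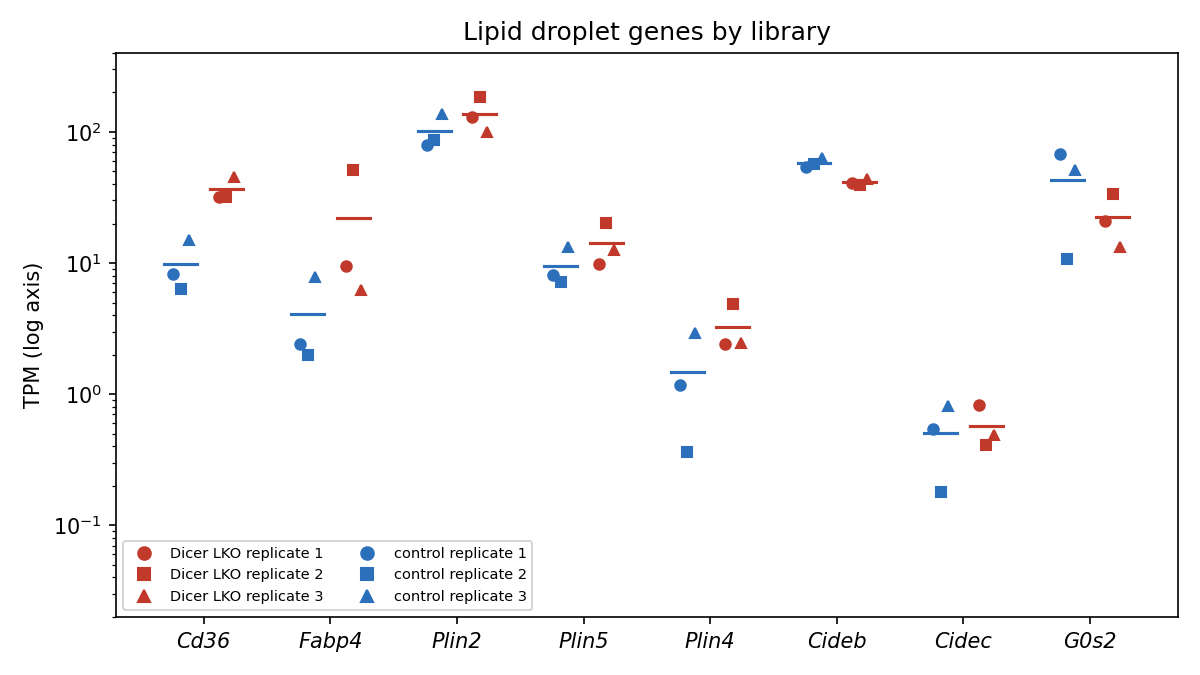
Deposited TPM (log axis) of the 8 tested members in each library, with the group means as horizontal lines (red for Dicer LKO, blue for control; circle, square and triangle for replicates 1, 2 and 3). Only Cd36 and Cideb have groups that do not overlap (28.0% of all genes do not, in CPM). Fabp4 in Dicer LKO replicate 2 is at 50.8 TPM.

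The perilipin genes lay higher in Dicer LKO on average, with overlapping groups and no call. Plin2, the perilipin that coats droplets in most cells and the usual marker of liver fat, was the most abundant member. It was at 129, 185 and 99.5 TPM in Dicer LKO and at 79.4, 87.3 and 136 TPM in the controls (log2 fold change 0.61, SE 0.32, adjusted p = 0.317, edgeR). Control replicate 3 was above 2 of the 3 Dicer LKO libraries, and the other 2 controls were below all 3. Plin2 is on chromosome 4 (86648386 to 86670060, minus strand).

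Plin5, which ties droplets to mitochondria in tissues that burn fat, was at 9.91, 20.3 and 12.7 TPM against 8.07, 7.11 and 13.2 TPM (0.75, SE 0.34, adjusted p = 0.269, edgeR). Plin4, which coats small nascent droplets, was at 2.41, 4.87 and 2.47 TPM against 1.17, 0.36 and 2.91 TPM (1.32, SE 0.74, adjusted p = 0.368, edgeR). In both, control replicate 3 was the control that reached into the Dicer LKO range. Without it the values were 0.88 for Plin2, 1.05 for Plin5 and 2.25 for Plin4, with adjusted p-values of 0.2 or more by edgeR. Without Dicer LKO replicate 2 they were 0.31, 0.38 and 0.88.

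Plin4 and Plin5 are neighbours on chromosome 17 (56100591 to 56109803 and 56111601 to 56117596, both on the minus strand), 1797 bases apart. Plin4 shares 17 bases with Hdgfl2 on the opposite strand, and the strand setting of the libraries is not known. As shares of all perilipin transcript (Plin1 to Plin5, summed TPM), Plin2 made up 80.1% ± 4.12 in Dicer LKO and 80.4% ± 2.36 in the controls (SD, n = 3 each). The share of Plin4 was 1.54%, 2.16% and 1.87% in Dicer LKO and 1.15%, 0.33% and 1.77% in the controls, and that of Plin5 was 8.33% ± 1.74 against 7.5% ± 0.856 (SD, n = 3 each). These shares overlapped between the groups, although without control replicate 3 those of Plin4 did not. Plin3, the widely expressed perilipin outside the 10 genes, was at 14.6, 14.7 and 17.4 TPM against 12.7, 14.4 and 11.5 TPM (0.38, adjusted p = 0.187, edgeR).

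Cideb, the CIDE gene of hepatocytes, whose protein serves droplet fusion and the lipidation of very low density lipoprotein, was lower in every Dicer LKO library. It was at 40.9, 39.1 and 43.6 TPM against 54.2, 56.9 and 63.0 TPM in the controls. The groups did not overlap (in CPM, 15.4% of genes had all Dicer LKO libraries below all controls). Replicates lay close together, with the highest library 1.11 times the lowest in Dicer LKO and 1.16 times in the controls. The means were 41.2 ± 2.24 and 58.0 ± 4.54 TPM (SD, n = 3 each), a ratio of 0.71. The log2 fold change was −0.37 (SE 0.12), and it missed the threshold (adjusted p = 0.137, edgeR; unadjusted 0.0132). It ran from −0.5 with library totals to −0.32 without control replicate 3, with adjusted p-values of 0.0828 to 0.371 over the 14 alternatives. Cideb (chromosome 14, 55754050 to 55758458, minus strand) shares 1136 exonic bases with Nop9 on the opposite strand, which was at 2.33 to 3.21 TPM.

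The other CIDE genes were scarce. Cidec, the CIDE protein of large droplets that is known to be induced in fatty liver (chromosome 6, 113424634 to 113435760, minus strand), was at 0.83, 0.41 and 0.49 TPM against 0.54, 0.18 and 0.81 TPM, from 8 to 26 counts per library (log2 fold change 0.22, SE 0.45, adjusted p = 0.818, edgeR). Its sign turned without control replicate 2 (−0.1), and without control replicate 3 it was 0.56. Cidea, typical of brown fat, had 1 count in Dicer LKO and 6 in the controls, 5 of them in control replicate 3. It did not pass the filter on low counts, and a count of 0 allows up to 3 counts in a library. Cideb made up 98.6% ± 0.514 of all CIDE transcript in Dicer LKO and 99.0% ± 0.643 in the controls (SD, n = 3 each, summed TPM).

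G0s2, the inhibitor of adipose triglyceride lipase, had its highest control library 6.29 times its lowest, a ratio exceeded among the members by Plin4 (8.08). It was at 21.1, 33.4 and 13.3 TPM in Dicer LKO and at 67.8, 10.8 and 51.0 TPM in the controls. Control replicate 2 was the lowest of all 6 libraries, and the other 2 controls were the highest. The log2 fold change was −0.78 (SE 0.70, adjusted p = 0.577, edgeR), −0.28 without control replicate 1, −1.21 without control replicate 2 and −0.62 without control replicate 3. G0s2 (chromosome 1, 193272161 to 193273217, minus strand) lies within Lamb3 on the opposite strand. It shares no annotated exon bases with Lamb3, which was at 0.25 to 0.84 TPM. Mogat1, an enzyme of triglyceride synthesis that is also induced in fatty liver (chromosome 1, 78510991 to 78538173, plus strand), had 6 counts over the Dicer LKO libraries and 12 over the controls, with 0 to 7 per library and 5 in control replicate 3, and was not tested.

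**Figure D3:**
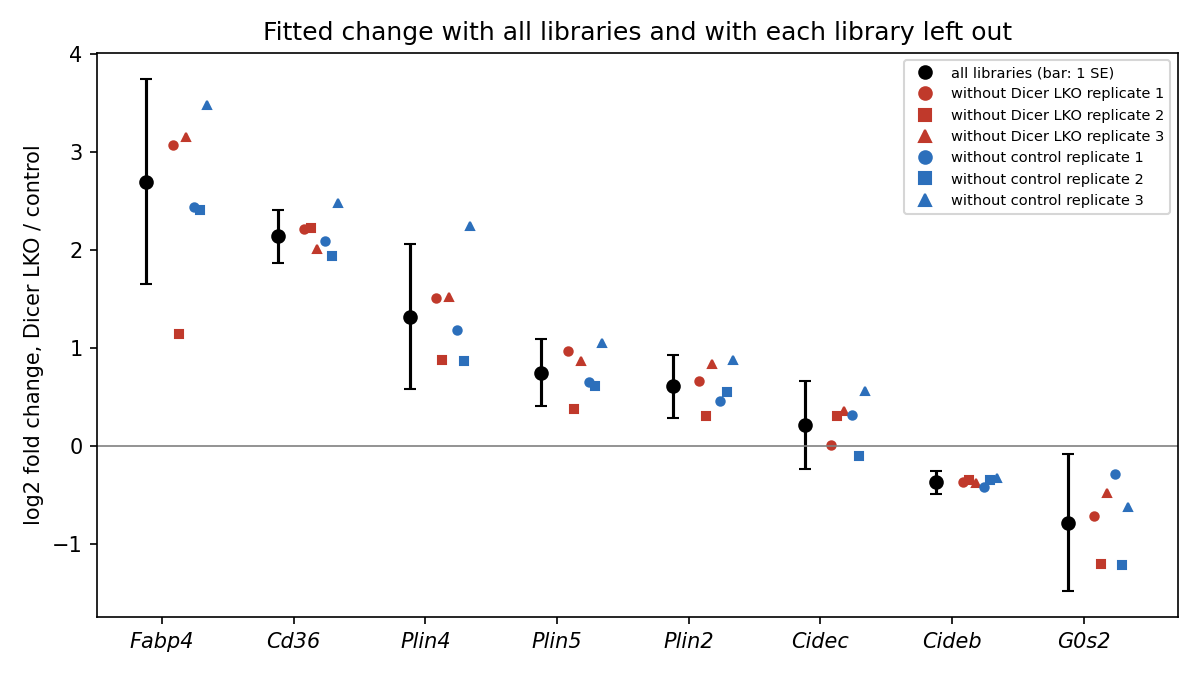
Log2 fold change (Dicer LKO over control) of the 8 tested members with all 6 libraries (black, bars of 1 SE) and with each library left out in turn (coloured by the group of the omitted library). Cd36 stays between 1.94 and 2.48, while Fabp4 falls to 1.14 without Dicer LKO replicate 2 and Plin4 reaches 2.25 without control replicate 3.

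Read as a group, the 8 tested members had a median log2 fold change of 0.68, against −0.013 over all genes. This median was 0.35 without Dicer LKO replicate 2, 0.97 without control replicate 3 and 0.6 without both. With all libraries the members' median was close to those of the stellate cell markers (0.67) and the macrophage markers (0.80). Without Dicer LKO replicate 2 those 2 lists had medians of 0.72 and 0.93, and without control replicate 3 of 0.84 and 0.57. Of the 8 members, 6 were positive, against 48.6% of all genes. Of the 8, 1 was called (12.5%), against 1.29% of genes. The groups did not overlap in 2 members, and in 28.0% of genes. In 1 member (Cd36) all Dicer LKO libraries were above all controls, where 12.7% of genes were, and in 1 (Cideb) all were below, where 15.4% were. At an unadjusted p under 0.05 there were 3 members, Cd36, Cideb and Fabp4 (37.5%), against 21.0% of genes. Control replicate 3 was the highest control for 7 of the 8 members in TPM, so leaving it out favours a gap. The members were chosen with earlier results of these data known, so the shares given here are no test of the list. Leaving out control replicate 3, Dicer LKO was above the controls without overlap in 5 of 8 members, Cd36, Plin2, Plin4, Plin5 and Fabp4 (62.5%), against 16.6% of genes. With Dicer LKO replicate 3 left out there were 3 such members, Cd36, Plin2 and Fabp4 (17.2% of genes), and with Dicer LKO replicate 1 left out there were 2, Cd36 and Plin5 (15.8%). Cd36 was the 1 such member without Dicer LKO replicate 2 (16.8%), control replicate 1 (21.9%) or control replicate 2 (19.0%). Cideb lay below the controls without overlap whichever library was left out (18.4% to 23.2% of genes), joined by G0s2 without control replicate 2 (20.6%). The order of mean levels in the controls was Plin2, Cideb, G0s2, Cd36, Plin5, Fabp4, Plin4 and Cidec. Plin2 lay above Cideb in every control library, whereas each later pair of neighbours in this order overlapped between libraries, among them G0s2 (43.2 ± 29.3 TPM) with Cd36, and Cd36 with Plin5 (9.46 ± 3.27 TPM). In Dicer LKO the mean of Cd36 was the third, behind Plin2 (138 ± 43.5 TPM) and Cideb, and Cd36 and Cideb overlapped (SD, n = 3 each).

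Lists of related genes held few calls. Of 22 tested PPAR-alpha target genes, 2 rose, where 0.741% of all genes did, and 15 were positive (median 0.16). These were Cyp4a14, a fatty acid hydroxylase (5.35, adjusted p = 0.0461, edgeR), and Angptl4, a secreted inhibitor of lipoprotein lipase (1.34, adjusted p = 0.0398, edgeR). Cyp4a14 was at 15.1, 55.6 and 55.5 TPM against 1.79, 0.45 and 1.13 TPM. Angptl4 was at 34.7, 50.1 and 44.8 TPM in Dicer LKO and at 16.9, 23.1 and 19.3 TPM in the controls, with no overlap. In 7 of these 22 genes all Dicer LKO libraries were above all controls in CPM, against 12.7% of genes. In 1 all were below, against 15.4%. None of the following lists held a call in either direction by edgeR. Of all genes, 1.29% were called, a share at which lists this short often hold none. The 18 tested genes of other lipid droplet proteins had a median of −0.15, and the droplet enzymes Mettl7b (−0.25) and Hsd17b13 (−0.09) were the most abundant. The 10 genes of triglyceride breakdown had a median of −0.15, with the carboxylesterases Ces1d and Ces1f at −1.22 and −1.03.

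Fatty acid uptake, binding and activation (19 genes) had a median of −0.07. Fabp1, the main fatty acid carrier of hepatocytes, was at 2640, 1624 and 1952 TPM against 3914, 1902 and 2689 TPM (−0.35, adjusted p = 0.557, edgeR), and the acyl-CoA binding protein Dbi had a value of 0.42. Triglyceride assembly and export (15 genes) had a median of 0.06, with Apob at −0.03 and Dgat2, the last enzyme of triglyceride synthesis, at −0.19. In 3 of these 15, Gpat3 (1.96), Lpin1 (1.53) and Tm6sf2 (0.85), all Dicer LKO libraries were above all controls in CPM, against 12.7% of genes. None of the 15 lay below the controls without overlap. The 14 PPAR and lipid regulators had a median of −0.09, with Rxra at −0.18 and Creb3l3 at 0.09. In 2 of these 14, Srebf1 (−1.29) and Mlxipl (−1.28), all Dicer LKO libraries were below all controls in CPM, against 15.4% of genes. Their adjusted p-values were 0.146 and 0.0717 by edgeR. None of the 14 lay above the controls without overlap.

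**Figure D4:**
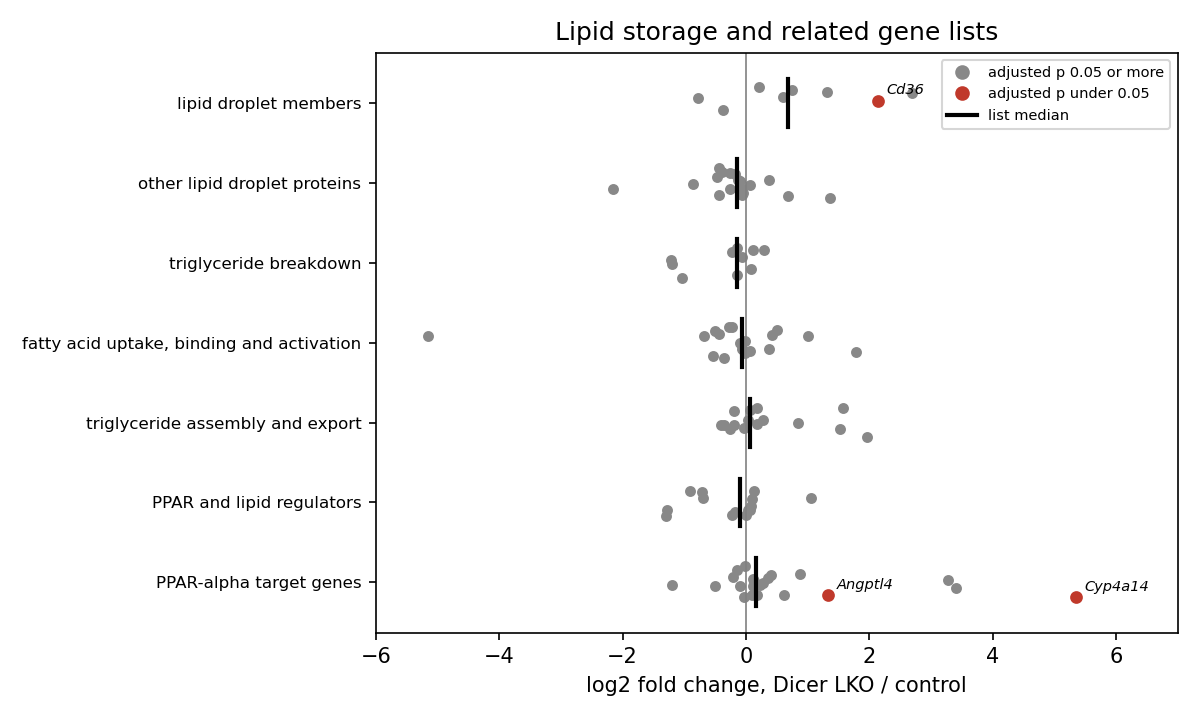
Log2 fold change (Dicer LKO over control, horizontal axis) of each tested gene in the lipid droplet members and in 6 related lists, with the list median as a black bar and called genes in red. The called genes are Cd36 (2.14), Angptl4 (1.34) and Cyp4a14 (5.35).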

How the data were processed

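Whole-liver RNA was sequenced in 6 samples, grouped and numbered as their titles state. For each sample the authors deposited an expected count, which is RSEM's estimate of the reads of a gene without normalization, and a TPM value, which is length-corrected and has the same total in every library, for 50600 genes. RSEM is known here from column names, per the file headers. The submitters' processing notes name CASAVA, Bowtie and the human build hg19, whereas the identifiers are those of mouse genes; the mouse annotation is not given in the sources used here. Coordinates and untranslated regions come from GENCODE M21 (GRCm38), which matched 99.6% of identifiers, and promoter and miRNA sequences from RefSeq (GRCm38.p6); 8 of the 10 members matched the promoter table. miR-122 was not analysed here.

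Counts were rounded, filtered with filterByExpr, scaled with TMM factors (0.896 to 1.12) and tested with edgeR 4.0.16 (R 4.3.3; glmQLFit, robust, and glmQLFTest) on genotype alone. Calls needed an adjusted p (Benjamini-Hochberg, over all 14314 genes tested) under 0.05. Each SE was obtained as the size of the log2 value over the root of its F statistic. CPM uses the same scaling. Floors for a count of 0 are 3 counts and cover counting error only. The script was tested on simulated data. Alternatives were library totals, DESeq2 1.42.0, limma 3.58.1 on log2(TPM + 0.5), other filters, no robust setting, a replicate block and leaving out libraries. No pair of libraries was identical (chi-square per gene of 26.1 or more).

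The members and all gene lists were chosen with earlier results of these data known. The named genes were Dicer1, the 10 members and, per list, up to 4 called genes or, where fewer than 2 were called, the 2 with the highest mean TPM. Trem2, Vwf, Plin3, Fabp3, Cox8b, Hilpda, Fabp5, Nop9, Lamb3, Adipoq, Plin1 and Lep were named after their values were seen. So were Nppa, Marco, Gpat3, Lpin1, Tm6sf2, Srebf1 and Mlxipl.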

Additional observations from a re-analysis of the deposited data

How the results depend on the processing

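Over the 8 tested members and 14 alternatives each, 108 of 112 values kept their direction and their side of the threshold, 3 lost the call (all Cd36) and 1, Cidec without control replicate 2 (−0.1), turned sign within a range of −0.1 to 0.58, the latter without both Dicer LKO replicate 2 and control replicate 3. The number of members called was 1 with all libraries and 0 to 1 when 1 library was left out. It was 0 with limma on log2 TPM, where the fold change is on the log2(value + 0.5) scale, and 1 in each remaining alternative. The number of genes called was less stable. It was 185 (57.3% higher), 74 with limma on log2 TPM (48.6%), 103 with library totals (48.5%), 422 with no filter on low counts (49.1%) and 1160 in DESeq2 (42.2%). When 1 library was left out it was 23 to 389, with 39, 92 and 31 for the omission of Dicer LKO libraries 1, 2 and 3, respectively, and 389, 61 and 23 for that of control libraries 1, 2 and 3. It was 44 without both Dicer LKO replicate 2 and control replicate 3, an alternative added after the data were seen. The share called higher was 19.5% without control replicate 1 and 65.2% to 82.1% without any other single library. The cause was not tested. Library totals moved the median of all genes to −0.132 from −0.013, and every member's value moved down with it, which turned no sign. With the replicate number as a block, 245 genes and 1 member, Cd36 (2.19, adjusted p = 0.00756, edgeR), were called. Same-numbered samples correlated at 0.109, 0.065 and −0.0964 in their deviations from the group means, so the numbers were not taken to pair the samples. Depth limits Cidea, Cidec and Mogat1, whose libraries held at most 26 counts each.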

Other observations

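Dicer LKO replicate 2 held the highest value of its group for 5 of the 8 tested members (Plin2, Plin4, Plin5, Fabp4 and G0s2), and other lipid genes, named here after their values were seen, were also at their extremes there. Hilpda, a droplet protein that inhibits lipolysis, was at 5.24 TPM in this library, against 1.28 and 1.44 TPM in the other Dicer LKO libraries and 1.10 to 1.16 TPM in the controls. Fabp5, a carrier related to Fabp4, was at 100.6 TPM against 29.7 and 22.3 TPM in the other Dicer LKO libraries and 9.03 to 24.5 TPM in the controls. The carboxylesterases Ces1d and Ces1f were lowest there, at 33.9 and 14.7 TPM, against at least 68.7 and 67.0 TPM in the other 5 libraries. Among the controls, replicate 3 was highest for 7 of the 8 members, all but G0s2, and replicate 2 was lowest for 6.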
